A study of Homo sapiens with 6 samples.

Results

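This account covers ferritin and cellular iron handling: the 2 ferritin chains, the routes by which iron enters and leaves the cell and the mitochondrion, the proteins that sense it, and the enzyme that frees it from haem. The members are the 10 rows of the deposited table whose symbol is FTL, FTH1, NCOA4, TFRC, SLC11A2, SLC40A1, ACO1, IREB2, SLC25A37 or HMOX1, out of 16197 rows in all, and each of the 10 was found. RNA was sequenced from Panc1, an established human pancreatic carcinoma cell line, given BRQ (3 libraries) or the solvent DMSO (3 libraries), in DMEM with fetal bovine serum. The series title speaks of a DHODH inhibitor, and BRQ is read here as brequinar, which blocks that mitochondrial enzyme of pyrimidine synthesis. Dose and exposure time are not given in the sources used here, and all libraries come from 1 cell line. Nothing in the labels tells whether replicate libraries stand for separate cultures, and every p-value is therefore measured against a spread that may be technical.

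Iron that enters a cell on transferrin through the transferrin receptor is released in endosomes, carried across their membrane and used, stored in ferritin or exported. Ferritin is a hollow shell of heavy and light chains: the heavy chain oxidises iron and the light chain helps it to mineralise, and the receptor NCOA4 carries ferritin to the lysosome when iron is needed. The iron regulatory proteins, the products of ACO1 and IREB2, bind a hairpin called the iron-responsive element (IRE) in certain mRNAs when iron is scarce. Bound near the start of an mRNA they block its translation, and bound beyond the coding sequence of the transferrin receptor mRNA they protect it from decay, so RNA levels such as those measured here do not show how much ferritin protein was made.

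The hairpins are shown first because they are the letters through which the iron regulatory proteins reach the ferritin, transferrin receptor and ferroportin mRNAs. The search asked, on the transcribed strand of GENCODE 29 protein-coding transcripts, for the loop CAGTGN with a last base other than G. The loop had to be flanked by 5 paired bases (G-T pairs allowed), with a C just before them. Whether that C was unpaired was not checked. It found a match in 4 of the 10 members and in 1.08% of all 19702 coding genes searched. The 28 bases of each match are printed 5′ to 3′ as DNA, with the loop in capitals. The element of FTL lies in its 5′ UTR at chr19:48965336-48965363 on the plus strand of GRCh38, that of FTH1 in its 5′ UTR at chr11:61967574-61967601 on the minus strand, and that of SLC40A1 in its 5′ UTR at chr2:189580661-189580688 on the minus strand. TFRC held 4 matches in the transcript with the most, all in its 3′ UTR on the minus strand of chromosome 3, between 196050463 and 196051006. A match was present in 1 of 1 coding transcripts of FTL, 7 of 8 of FTH1, 3 of 4 of TFRC and 1 of 5 of SLC40A1.
FTL: tcttgcttcaaCAGTGTttggacggaac
FTH1: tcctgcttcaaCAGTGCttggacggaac
SLC40A1: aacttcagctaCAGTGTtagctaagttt
TFRC element 1: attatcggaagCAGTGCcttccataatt
TFRC element 2: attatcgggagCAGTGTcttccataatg
TFRC element 3: tgtatcggagaCAGTGAtctccatatgt
TFRC element 4: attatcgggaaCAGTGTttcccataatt
The FTH1 element differs from that of FTL by T3C and T17C, counted from the first base shown, with the FTL base given first. The other elements share 10 to 13 of their 28 bases with that of FTL. In SLC11A2, IREB2, ACO1, NCOA4, SLC25A37 and HMOX1 these letters were not found in the transcripts searched, which says nothing of other forms of the element. SLC11A2 is known for an IRE in the 3′ UTR of some of its mRNAs, and this strict pattern did not find it.

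Levels are FPKM (fragments per kilobase of gene length, scaled to the library's total), as the authors deposited them, with the mean ± SD of 3 libraries for each group. Relative depths, read from the steps between low values, were 1.02 to 1.03 in the BRQ libraries and 0.959 to 0.986 in the DMSO libraries, at a rough depth of 3.15e+07 fragments per library. BRQ libraries 1 and 2 stood apart in haemoglobin RNA: HBB was at 64.2, 32.8 and 0.739 FPKM in BRQ libraries 1, 2 and 3, against 0.0488, 0.0498 and 0.677 FPKM in DMSO libraries 1, 2 and 3. Of 18 erythroid marker genes 14 had a row. They summed to 1.85 to 88.9 FPKM in the BRQ libraries and 0.610 to 2.14 FPKM in the DMSO libraries. HBA1 (10.8, 5.04 and 0.151 FPKM) and HBA2 (13.6, 7.93 and 0.957 FPKM) followed HBB in BRQ libraries 1, 2 and 3. In the DMSO libraries HBA1 was at or below 0.108 FPKM and HBA2 at 0.434 to 1.27 FPKM. ALAS2 was at 0.230, 0.199 and 0 FPKM in BRQ libraries 1, 2 and 3, and at or below 0.0148 FPKM in DMSO. The erythroid regulator KLF1 was at 0 in the BRQ libraries, and only 3 of the 14 reached 1 FPKM in any library. Of 14 macrophage and leukocyte markers 13 had a row, summing to 158 to 168 FPKM in BRQ and 107 to 116 FPKM in DMSO, almost all of it the lysosomal protein CD68. LYZ (1.28 to 2.79 FPKM over all libraries) and FCER1G (0.444 to 2.39 FPKM) were low and did not pass. CD163 and CSF1R were at or below 0.162 FPKM throughout, C1QA and C1QB at or below 0.0233 FPKM, and TYROBP between 0.0528 and 0.694 FPKM. The 8 fibroblast markers summed to 77.8 to 84.2 FPKM in BRQ and 52.2 to 55.9 FPKM in DMSO, mostly LUM (76.8 to 81.5 FPKM in BRQ and 51.6 to 53.4 FPKM in DMSO). COL1A1 lay between 0.295 and 1.37 FPKM, and DCN was at or below 0.0712 FPKM. The part of the macrophage and fibroblast markers in the results was not tested. Of 8 markers of the line, all with a row, the epithelial keratins KRT8, KRT18 and KRT19 lay between 558 and 877 FPKM in all libraries and KRT7 between 1.13 and 1.39 FPKM. The intermediate filament gene VIM was at 880.0 ± 20.5 FPKM in BRQ and 1870.1 ± 28.2 FPKM in DMSO (log2 fold change -1.09 ± 0.038, limma adjusted p = 1.89e-08), KRT18 (-0.16) and KRT19 (-0.34) were also lower and S100A6 (0.40) was higher, and the other 4 did not pass. CDKN2A, which Panc1 is generally described as lacking, was at 32.5 ± 2.13 FPKM in BRQ and 46.3 ± 2.73 FPKM in DMSO, and the identity of the line was not tested.

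Changes are log2 fold changes of FPKM + 1, BRQ over DMSO, with their SE, tested by limma with Benjamini-Hochberg adjustment over the 10689 genes that averaged at least 1 FPKM. Of the 10 members, all of which passed that filter, 8 passed an adjusted p of 0.05, beside 62.1% of all tested genes. FTL, FTH1, NCOA4, TFRC and ACO1 were higher in BRQ (5 of 10, beside 36.9% of all tested genes), and SLC11A2, IREB2 and SLC25A37 were lower (3 of 10, beside 25.2%). The median absolute log2 fold change was 0.42 among the members and 0.24 among all tested genes, and the median signed change was 0.20 and 0.06. The groups did not overlap in 8 members, beside 67.2% of all tested genes. In bulk RNA such as this, fewer cells of a kind and less RNA per cell cannot be told apart.

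**Figure D1:**
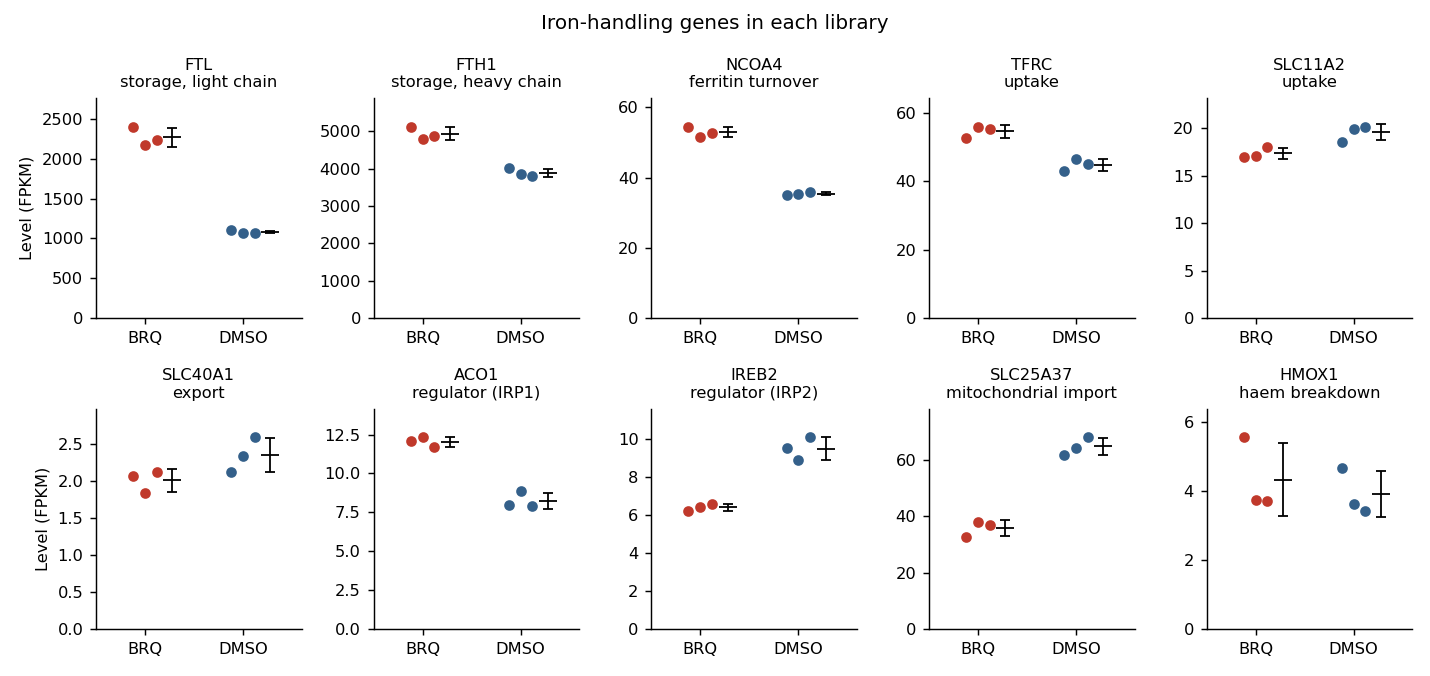
Level of each iron-handling gene in FPKM (y axis, from 0, a separate scale for each gene) in the 3 BRQ libraries (red, left) and the 3 DMSO libraries (blue, right). Points are libraries and black bars are means ± SD, and the groups overlap in SLC40A1 and HMOX1 alone among the 10 genes.

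Both ferritin chains rose, the light chain by the larger fold. FTL, the light chain (chr19:48965301-48966878), had 2401, 2171 and 2236.5 FPKM in BRQ libraries 1, 2 and 3, against 1101, 1071 and 1071 FPKM in DMSO libraries 1, 2 and 3. The lowest BRQ library was far above the highest DMSO library. Its log2 fold change was 1.07 ± 0.045 (limma adjusted p = 5.16e-08), and 1.22% of tested genes had a higher one. Without BRQ libraries 1 and 2, which held haemoglobin RNA, it was 1.05 (adjusted p = 2.29e-06). By mean level FTL stood 6th among the 16197 genes in BRQ and 32nd in DMSO.

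FTH1, the heavy chain with the iron-oxidising site (chr11:61959718-61967660), had 5119, 4790.0 and 4879 FPKM in BRQ libraries 1, 2 and 3, against 4012, 3851.5 and 3797 FPKM in the DMSO libraries. The groups stood apart, by a smaller margin than for FTL. The log2 fold change was 0.34 ± 0.045 (adjusted p = 7.07e-05), and 21.1% of tested genes had a higher one, and it was 0.33 without BRQ libraries 1 and 2 (adjusted p = 8.71e-04). FTH1 was the gene with the 2nd highest mean in both groups. Its annotated span overlaps that of BEST1, a chloride channel gene on the opposite strand, over 5798 bases, and strand is not stated for these counts. BEST1 was at 0.678 ± 0.0914 FPKM in BRQ and 1.49 ± 0.283 FPKM in DMSO, far below FTH1. Both ferritin genes have processed copies in the genome, 25 named after FTH1 and 16 after FTL in GENCODE 29, and no row of the table carries such a name. How reads matching those copies were assigned is not given in the sources used here, so both levels are uncertain to that extent.

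The make-up of ferritin RNA shifted towards the light chain. FTL stood at 0.469, 0.453 and 0.458 of FTH1 in BRQ libraries 1, 2 and 3, against 0.275, 0.278 and 0.282 in the DMSO libraries. This ratio within a library does not depend on how libraries are scaled to each other. The log2 ratio was 0.73 ± 0.018 higher in BRQ (SE), with an exact two-sided permutation p of 0.1, the smallest that 3 libraries against 3 allow, and 0.133 when adjusted over the 4 ratios compared. Light-chain RNA made up 31.2% to 31.9% of ferritin FPKM in the BRQ libraries and 21.5% to 22.0% in the DMSO libraries. Both chains together held 1.87% to 1.94% of all FPKM in the BRQ libraries and 1.35% to 1.40% in the DMSO libraries.

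NCOA4, the receptor that hands ferritin to autophagy (chr10:46005088-46030714), had 54.5, 51.6 and 52.8 FPKM in BRQ libraries 1, 2 and 3, against 34.998, 35.3 and 35.8 FPKM in the DMSO libraries. Every BRQ library was above every DMSO library, and the DMSO values lay within 1 FPKM of each other. The log2 fold change was 0.57 ± 0.042 (adjusted p = 1.19e-06), between those of the ferritin chains. HERC2, a ubiquitin ligase that marks NCOA4 for destruction, was at 4.90 ± 0.575 FPKM in BRQ and 6.57 ± 0.296 FPKM in DMSO, a log2 fold change of -0.36 ± 0.082 (adjusted p = 0.00283). HERC2 spans a long stretch of the genome, and it no longer passed once the dependence of each library on gene span was taken out (-0.07, adjusted p = 0.394).

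**Figure D2:**
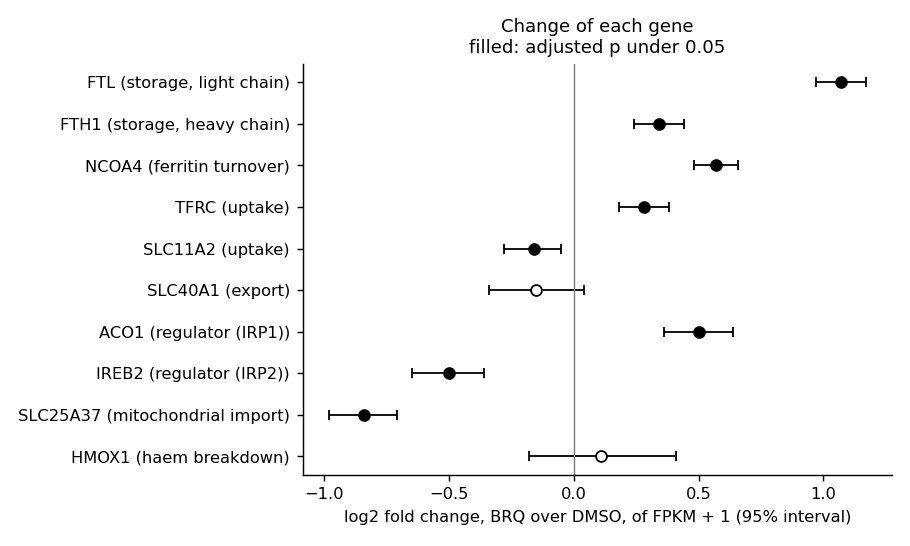
Log2 fold change of FPKM + 1, BRQ over DMSO (x axis), of the 10 iron-handling genes, ordered by role. Bars are 95% intervals from the limma fit, and the intervals of SLC40A1 (-0.34 to 0.04) and HMOX1 (-0.18 to 0.41) span 0.

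Of the genes that bring iron in, TFRC was higher and SLC11A2 slightly lower in BRQ. TFRC, the transferrin receptor (chr3:196027183-196082189), had 52.6, 56.0 and 55.3 FPKM in BRQ libraries 1, 2 and 3, against 43.0, 46.4 and 45.1 FPKM in the DMSO libraries. The groups did not overlap, and the log2 fold change was 0.28 ± 0.046 (adjusted p = 3.64e-04). The ratio of TFRC to FTH1 sets an uptake gene against a storage gene within a library. TFRC stood at 0.0103, 0.0117 and 0.0113 of FTH1 in BRQ libraries 1, 2 and 3, against 0.0107, 0.0121 and 0.0119 in the DMSO libraries. These ratios overlapped, and their log2 difference was -0.06 ± 0.077 (exact two-sided permutation p = 0.5, also when adjusted over the 4 ratios).

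SLC11A2, the carrier that moves ferrous iron out of endosomes (chr12:50979401-51028566), had 16.9, 17.1 and 17.98 FPKM in BRQ libraries 1, 2 and 3, against 18.6, 19.9 and 20.1 FPKM in the DMSO libraries. The gap between the nearest libraries of the groups was small. The log2 fold change was -0.16 ± 0.053 (adjusted p = 0.0201). The call was lost without BRQ library 2 (-0.15, adjusted p = 0.0561), without DMSO library 2 (-0.15, adjusted p = 0.0668), without DMSO library 3 (-0.14, adjusted p = 0.0764) and without BRQ libraries 1 and 2 together (-0.11, adjusted p = 0.235).

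SLC40A1, ferroportin, the exporter of iron from the cell (chr2:189560579-189583758), was low in both groups. It had 2.08, 1.84 and 2.13 FPKM in BRQ libraries 1, 2 and 3, against 2.13, 2.34 and 2.60 FPKM in the DMSO libraries. The groups touched, and the log2 fold change of -0.15 ± 0.086 did not pass the test (adjusted p = 0.145). It passed only in 1 of the alternatives run, when each library's dependence on gene span was taken out (-0.23, adjusted p = 0.0349). At the rough depth of these libraries its lowest value corresponds to about 250 fragments.

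The genes of the 2 iron regulatory proteins moved in opposite directions. ACO1, which encodes IRP1, an aconitase that binds IREs when it lacks its iron-sulphur cluster (chr9:32384603-32454769), had 12.1, 12.3 and 11.7 FPKM in BRQ libraries 1, 2 and 3, against 7.96, 8.84 and 7.89 FPKM in the DMSO libraries. All BRQ values were higher, and the log2 fold change was 0.50 ± 0.062 (adjusted p = 4.77e-05). IREB2, which encodes IRP2, the form controlled by its degradation when iron is plentiful (chr15:78437431-78501456), had 6.23, 6.40 and 6.59 FPKM in BRQ libraries 1, 2 and 3, against 9.53, 8.89 and 10.1 FPKM in the DMSO libraries. All BRQ values were lower, and the log2 fold change was -0.50 ± 0.065 (adjusted p = 6.41e-05).

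ACO1 RNA was the higher of this pair per length in every BRQ library and the lower in every DMSO library. It stood at 1.94, 1.92 and 1.77 of IREB2 in BRQ libraries 1, 2 and 3, against 0.835, 0.994 and 0.781 in the DMSO libraries. The log2 difference was 1.12 ± 0.112 (exact two-sided permutation p = 0.1, adjusted 0.133), for a ratio chosen after the values of both genes were seen. FBXL5, the iron-sensing ligase subunit that targets IRP2, was at 11.9 ± 0.897 FPKM in BRQ and 10.8 ± 0.686 FPKM in DMSO and did not pass (log2 fold change 0.13 ± 0.069, adjusted p = 0.132), except with the span trend removed (0.21, adjusted p = 0.0314). An antisense gene, AC027228.1, overlaps IREB2 over 1764 bases, and reads of the pair cannot be told apart without strand.

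**Figure D3:**
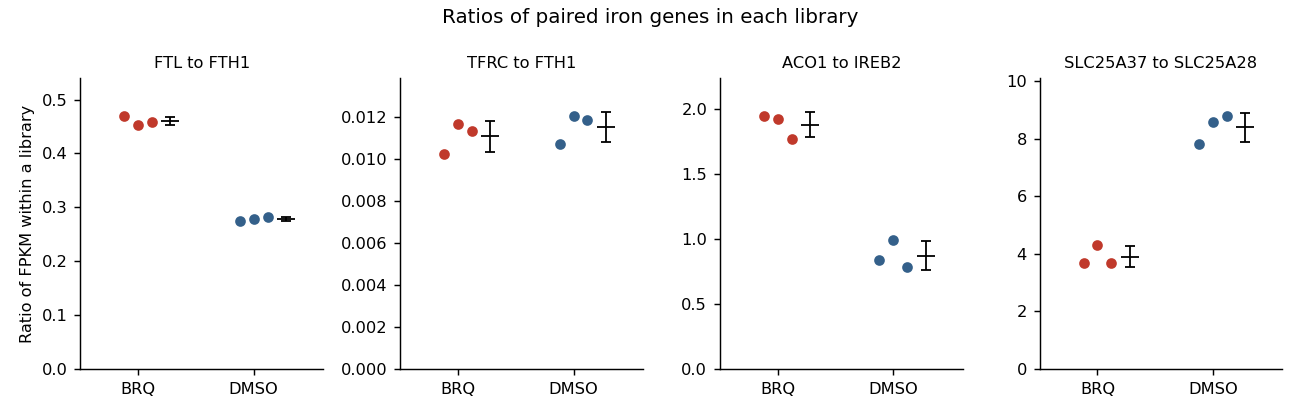
Ratio of the FPKM of 2 genes within each library (y axis, from 0) for FTL to FTH1, TFRC to FTH1, ACO1 to IREB2 and SLC25A37 to SLC25A28, with BRQ libraries in red at left and DMSO libraries in blue at right. Points are libraries and black bars are means ± SD, and the groups overlap in TFRC to FTH1 alone.

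SLC25A37, mitoferrin-1, which imports iron into mitochondria (chr8:23528805-23575463), showed the largest decrease of the 10. It had 32.5, 37.9 and 36.8 FPKM in BRQ libraries 1, 2 and 3, against 61.8, 64.3 and 67.9 FPKM in the DMSO libraries. The groups were far apart. The log2 fold change was -0.84 ± 0.061 (adjusted p = 9.85e-07), and 1.06% of tested genes had a lower one. Without BRQ libraries 1 and 2 it was -0.80 (adjusted p = 1.94e-05). SLC25A28, mitoferrin-2, the related importer, was at 9.20 ± 0.697 FPKM in BRQ and 7.72 ± 0.216 FPKM in DMSO (log2 fold change 0.22 ± 0.067, adjusted p = 0.0130). The SLC25A28 call was lost with TPM scaling (adjusted p = 0.0587), with the span trend removed (0.157) and without BRQ library 3 (0.0592).

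Mitoferrin-1 remained the more abundant of the pair per length in every library. It stood at 3.68, 4.32 and 3.68 of SLC25A28 in BRQ libraries 1, 2 and 3, against 7.80, 8.58 and 8.77 in the DMSO libraries. The log2 difference was -1.11 ± 0.093 (exact two-sided permutation p = 0.1, adjusted 0.133), again for a ratio chosen after the values were seen.

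HMOX1, the inducible haem oxygenase that releases iron from haem (chr22:35380361-35394214), was low and did not differ detectably. It had 5.55, 3.74 and 3.70 FPKM in BRQ libraries 1, 2 and 3, against 4.66, 3.62 and 3.42 FPKM in the DMSO libraries. Library 1 was the highest in each group, and the groups overlapped. The log2 fold change was 0.11 ± 0.135 (adjusted p = 0.485), and it was -0.05 without BRQ library 1 (adjusted p = 0.735). HMOX2, the constitutive haem oxygenase, was at 38.5 ± 2.11 FPKM in BRQ and 36.7 ± 0.409 FPKM in DMSO (log2 fold change 0.07 ± 0.049, adjusted p = 0.257).

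The genes whose profiles over the 6 libraries lay nearest to those of members, among 7575 others with a mean of at least 5 FPKM, were picked by Euclidean distance of log2(FPKM + 1) centred on the DMSO mean. Nearest to FTL were HMGN2 (126.9 ± 6.48 FPKM in BRQ and 62.1 ± 1.79 FPKM in DMSO, distance 0.115), TP53I3 (distance 0.118) and MICB (distance 0.121). Nearest to FTH1 were PPP1CA (distance 0.028), C9orf78 (0.031) and LAP3 (0.049). Nearest to TFRC were M6PR (0.041), MFN2 (0.062) and UBE2G2 (0.064), and nearest to HMOX1 were ETFDH (0.187), SNRNP35 (0.244) and RXYLT1 (0.252).

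Beyond the members, 112 further genes of iron metabolism were listed by role, 110 had a row and 92 averaged at least 1 FPKM. Of those 92, 40 were higher in BRQ (43.5%, beside 36.9% of all tested genes), 19 were lower (20.7%, beside 25.2%) and 33 did not pass. The median log2 fold change was 0.18, against 0.06 for all tested genes. Under trimmed-mean, median-of-ratios or TPM scaling, the median was 0.13 for these 92 and 0.007 to 0.008 for all tested genes. Of these 92, 38 to 39 were then higher and 21 lower. Of all tested genes 3382 to 3395 were then higher and 3160 to 3217 lower, against 3946 and 2692 as deposited. These counts describe the lists, and the members of a list share pathways and are not independent. For each list below, the shares of all tested genes to set beside its counts are 36.9% higher and 25.2% lower.

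**Figure D4:**
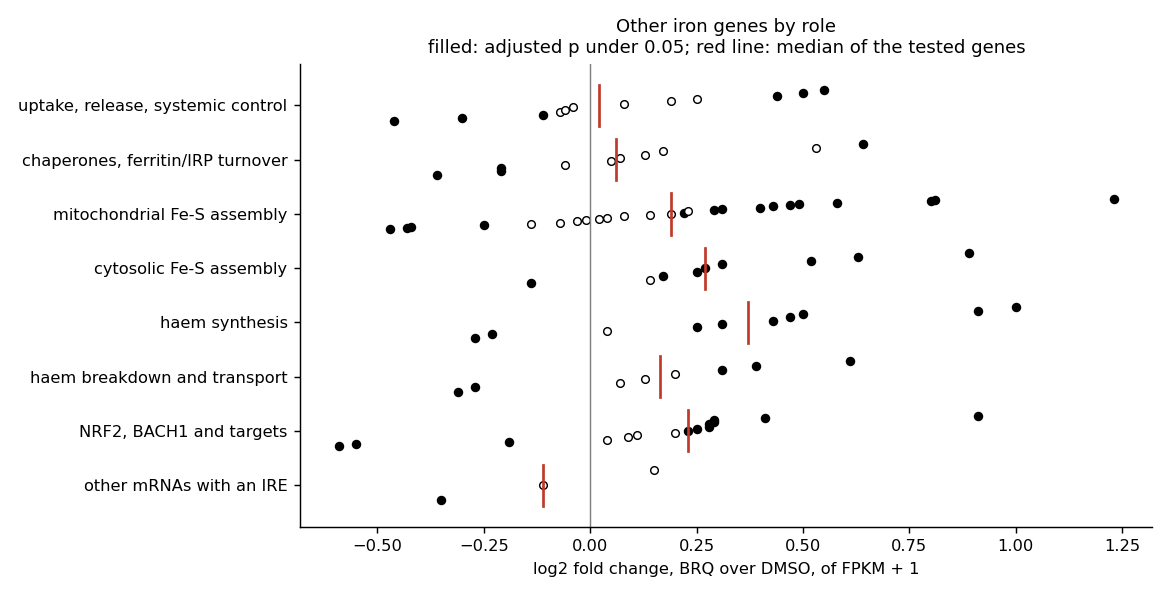
Log2 fold change of FPKM + 1, BRQ over DMSO (x axis), of the 92 further iron genes tested, in 8 lists by role (rows). Each point is a gene, and the red line is the list's median, which runs from -0.11 in the 3 other mRNAs with an IRE to 0.37 in haem synthesis.

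Haem synthesis held the highest median, 0.37, with 7 of 10 tested genes higher, 2 lower and 1 not passing. With the span trend removed 6 of 10 were higher and 2 lower, and the median was 0.26. UROD, the uroporphyrinogen decarboxylase, was at 76.7, 71.4 and 74.7 FPKM in BRQ libraries 1, 2 and 3, against 42.0, 36.5 and 32.1 FPKM in the DMSO libraries (log2 fold change 1.0 ± 0.079, adjusted p = 1.94e-06). The BRQ values were all far above the DMSO values. ABCB6, a porphyrin transporter, was at 9.08 ± 0.904 FPKM in BRQ and 4.37 ± 0.617 FPKM in DMSO (0.91 ± 0.094, adjusted p = 1.26e-05). CPOX, the coproporphyrinogen oxidase, was at 5.74 ± 0.0401 FPKM in BRQ and 6.90 ± 0.451 FPKM in DMSO (-0.23 ± 0.067, adjusted p = 0.0118). It no longer passed without DMSO library 2 (adjusted p = 0.0568) or without BRQ libraries 1 and 2 (0.0976).

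Among genes of cytosolic iron-sulphur assembly, 7 of 9 were higher, 1 was lower and 1 did not pass, with a median log2 fold change of 0.27. With the span trend removed 5 of 9 were higher, and the median was 0.15. NDOR1 and CIAPIN1 form the electron transfer pair of this pathway. NDOR1 was at 22.0, 20.8 and 22.7 FPKM in BRQ libraries 1, 2 and 3, against 11.4, 11.6 and 10.9 FPKM in the DMSO libraries (0.89 ± 0.055, adjusted p = 3.75e-07). CIAPIN1 was at 38.3 ± 0.527 FPKM in BRQ and 24.4 ± 0.730 FPKM in DMSO (0.63 ± 0.045, adjusted p = 9.12e-07). Both had BRQ values above all DMSO values. The targeting factor MMS19 was lower by a margin that most leave-one-out fits lost (-0.14 ± 0.055, adjusted p = 0.0499, and 0.0103 to 0.186 over all alternatives).

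In mitochondrial iron-sulphur assembly, 11 of 25 tested genes were higher, 4 were lower and 10 did not pass (median 0.19). FDXR, the reductase that feeds electrons to ferredoxin, was at 12.8, 13.4 and 11.8 FPKM in BRQ libraries 1, 2 and 3, against 4.43, 4.76 and 5.35 FPKM in the DMSO libraries (1.23 ± 0.076, adjusted p = 3.89e-07). Its change was larger than that of FTL on the log2 scale. ISCU, the scaffold on which clusters are built, was at 40.8 ± 2.45 FPKM in BRQ and 22.8 ± 1.76 FPKM in DMSO (0.81 ± 0.064, adjusted p = 1.77e-06). The sulphur donor NFS1, at 10.3 ± 1.51 FPKM in BRQ and 14.1 ± 0.344 FPKM in DMSO (-0.43 ± 0.085, adjusted p = 0.00129), was lower. Scaffold and sulphur donor thus changed in opposite directions.

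Other genes of iron uptake, release and systemic control split evenly, with 3 of 12 tested genes higher, 3 lower and 6 not passing. Their median was 0.02, and it was below 0 under each of the 3 other scalings (-0.02 to -0.03). The metal carriers SLC39A8 and SLC39A14, which both take up iron not bound to transferrin, went opposite ways. SLC39A8 was at 10.2 ± 0.317 FPKM in BRQ and 6.63 ± 0.190 FPKM in DMSO (0.55 ± 0.059, adjusted p = 1.76e-05), and SLC39A14 at 37.6 ± 1.27 FPKM in BRQ and 46.7 ± 1.71 FPKM in DMSO (-0.30 ± 0.047, adjusted p = 2.16e-04). Melanotransferrin, MELTF, was higher (0.50 ± 0.073, adjusted p = 1.42e-04), and TFR2, the second transferrin receptor, was lower (-0.46 ± 0.095, adjusted p = 0.00159, lost without BRQ libraries 1 and 2 at 0.0635). Transferrin itself, TF, and hepcidin, HAMP, were under 1 FPKM and not tested.

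Of the cytosolic iron chaperones and turnover factors, 1 of 10 tested genes was higher, 3 were lower and 6 did not pass (median 0.06, and -0.05 with the span trend removed). The chaperones that deliver iron to ferritin were abundant: PCBP1 was at 214 ± 5.63 FPKM in BRQ and 206 ± 3.04 FPKM in DMSO (log2 fold change 0.05, adjusted p = 0.229), and PCBP2 at 156 ± 2.03 FPKM in BRQ and 164 ± 5.75 FPKM in DMSO (-0.06, adjusted p = 0.180). PCBP1 changed sign, without passing, and PCBP2 passed as lower (-0.12) under each of the 3 other scalings. SKP1, a subunit of the ligase that holds FBXL5, was at 27.1 ± 2.06 FPKM in BRQ and 16.99 ± 0.340 FPKM in DMSO (0.64 ± 0.059, adjusted p = 5.02e-06). The glutaredoxin GLRX3 was lower (-0.21, adjusted p = 0.0292), a call lost without BRQ library 2 or 3, without DMSO library 1 or 3 and with no filter (adjusted p 0.0573 to 0.108).

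In haem breakdown and transport, 3 of 8 tested genes were higher, 2 were lower and 3 did not pass (median 0.16). The haem-binding membrane protein PGRMC1 was at 78.0 ± 7.68 FPKM in BRQ and 50.6 ± 0.379 FPKM in DMSO (0.61 ± 0.061, adjusted p = 9.87e-06). SLC48A1, which moves haem out of endosomes and lysosomes, was higher as well (0.39 ± 0.092, adjusted p = 0.00352). Biliverdin reductase BLVRA was lower (-0.27 ± 0.067, adjusted p = 0.00528), as was LRP1, an endocytic receptor that takes up haem bound to haemopexin (-0.31 ± 0.088, adjusted p = 0.00941, lost with no filter on low values at 0.061).

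HMOX1 and both ferritin chains are textbook targets of the transcription factor NRF2 (NFE2L2) and of the haem-sensing repressor BACH1. Of 15 genes of this axis, 8 were higher, 3 were lower and 4 did not pass (median 0.23). NFE2L2 itself was at 75.1 ± 0.775 FPKM in BRQ and 70.7 ± 3.34 FPKM in DMSO and did not pass (0.09 ± 0.044, adjusted p = 0.110), and its inhibitor KEAP1 was higher (0.25 ± 0.049, adjusted p = 0.00119). BACH1 was at 25.1 ± 0.759 FPKM in BRQ and 28.7 ± 0.912 FPKM in DMSO (-0.19 ± 0.048, adjusted p = 0.00539), a call lost without BRQ libraries 1 and 2 (-0.15, adjusted p = 0.0892). With the span trend removed, the sign of the BACH1 change turned (0.26, adjusted p = 8.16e-04) and NFE2L2 passed as higher (0.32, adjusted p = 1.95e-04), as it did without DMSO library 1 (0.12, adjusted p = 0.0410). That adjustment used whole annotated spans. For BACH1 the span is 436681 bases, against 47278 for its longest and its median transcript in the basic annotation. For NFE2L2 it is 165103 bases, against 162390 for the longest transcript and 33496 for the median.

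Textbook targets of NRF2 went in different directions. NQO1 was at 286 ± 17.96 FPKM in BRQ and 277.3 ± 0.862 FPKM in DMSO (0.04 ± 0.047, adjusted p = 0.452), and its sign changed with the scaling. GCLM, a subunit of the enzyme that starts glutathione synthesis, was at 2.87 ± 0.248 FPKM in BRQ and 2.37 ± 0.332 FPKM in DMSO (0.20 ± 0.093, adjusted p = 0.0785), and passed without DMSO library 2 (0.28, adjusted p = 0.0290). The cystine carrier SLC7A11 was lower, at 9.38, 10.8 and 10.9 FPKM in BRQ libraries 1, 2 and 3, against 14.8, 14.5 and 17.8 FPKM in the DMSO libraries (-0.55 ± 0.084, adjusted p = 1.94e-04). Malic enzyme ME1 was lower too (-0.59 ± 0.084, adjusted p = 1.28e-04), while the small Maf protein MAFF was higher (0.41 ± 0.054, adjusted p = 6.81e-05).

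Of the 3 other mRNAs listed for a known IRE, none was higher and CDC42BPA was lower (-0.35 ± 0.094, adjusted p = 0.00774). With the span trend removed, CDC42BPA turned sign without passing (0.04, adjusted p = 0.676), CDC14A was called higher and the median of the 3 was 0.04 in place of -0.11. Nor did CDC42BPA pass without BRQ libraries 1 and 2 (adjusted p = 0.0563). Among the members with a matched element, FTL, FTH1 and TFRC were higher and SLC40A1 did not pass, while SLC11A2, whose known element the pattern missed, was lower.

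**Figure D5:**
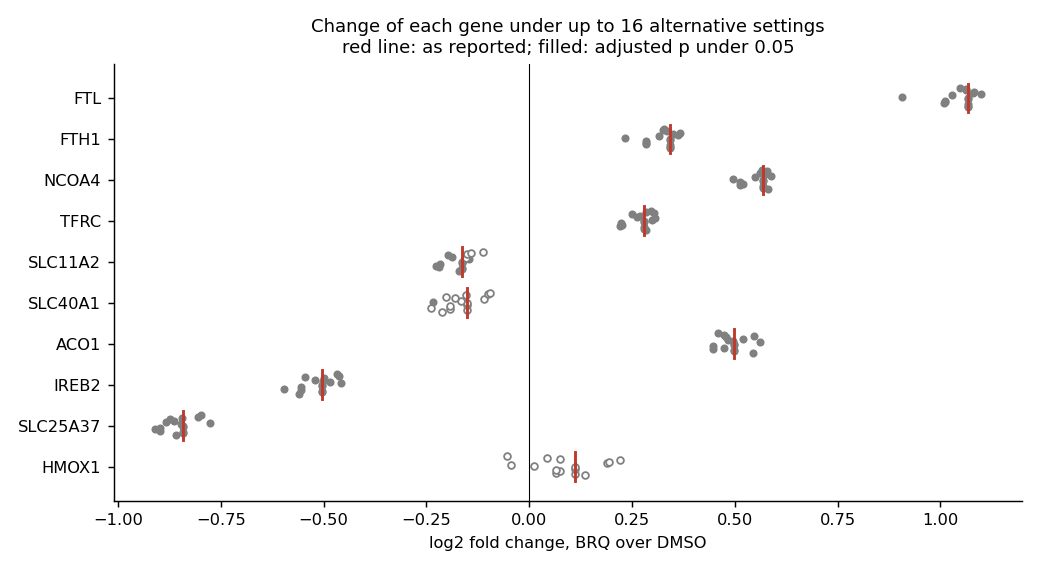
Log2 fold change, BRQ over DMSO (x axis), of each iron-handling gene as reported (red line) and under up to 16 alternative settings of scaling, filter, pseudocount, variance and libraries (points). Filled points passed an adjusted p of 0.05, and the values of HMOX1 lie on both sides of 0, from -0.05 to 0.22.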

How the data were processed

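The authors deposited 1 table of FPKM values per gene and library; the submitters' processing notes name fastp, HTSeq and the build hg38. Aligner, gene annotation, strand and gene lengths are not given in the sources used here. FPKM is relative to each library's total, and 94.4% of 1459 low genes were whole multiples of 1 fragment, within 0.02 of a fragment, once libraries were scaled; no count model was used.

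Groups came from the sample titles. Genes averaging 1 FPKM or more were tested on log2(FPKM + 1) with limma 3.58.1 in R 4.3.3 (eBayes with a trend, two-sided, Benjamini-Hochberg over all 10689 genes, threshold 0.05). Ratios of 2 genes were compared by exact permutation over libraries. The fit was tested on simulated data. Positions and IRE matches are from GENCODE 29 (GRCh38), and sequences from its transcripts. Figures were drawn with matplotlib 3.10.9.

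The members and gene lists were chosen with earlier results of these data known. Values are given for all members, for up to 2 genes past the threshold with the largest change in each direction of each list, and for 12 genes named whatever their values. Some genes that this rule takes are not reported here. BEST1, CDKN2A, LCN2, HFE, BOLA2B and 2 of the 4 ratios were picked once their values had been seen.

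The alternatives changed the pseudocount (0.1), the filter (none, or 5 FPKM), the scaling (trimmed mean, median of ratios, or TPM) or the variance (robust), added a replicate block, took out each library's dependence on gene span, or left out libraries. Running them on the further iron genes was decided after seeing the data.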

Additional observations from a re-analysis of the deposited data

How the results depend on the processing

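All 8 called members kept their direction under the 16 alternatives, and 7 of them also kept their call, SLC11A2 being the exception; 151 of 158 member values kept both. FTL ran from 0.91, with the trend with genomic span removed, to 1.10. Leaving out 1 library gave 7 to 8 members called and 6037 to 6404 genes called in all. HMOX1 ran from -0.045 to 0.221 with 1 library left out, turning sign without BRQ library 1, and was -0.053 without BRQ libraries 1 and 2. That last setting keeps a lone BRQ library, assumed to vary like the DMSO group. Of 636 values of 40 further iron genes, 584 kept direction and call, 29 lost the call, 10 gained one and 13 turned sign. Those that turned were PCBP1 under TPM (-0.003), trimmed-mean (-0.003) and median-of-ratios scaling (-0.004) and with the trend with gene span removed (-0.102); NQO1 under the same 4 settings (-0.016, -0.016, -0.016 and -0.049), without BRQ library 1 (-0.009, the lowest with 1 library left out, the highest being 0.076) and without BRQ libraries 1 and 2 (-0.026); BACH1 (0.258) and CDC42BPA (0.039) with the span trend removed; and BOLA2B without BRQ library 3 (-0.008, against 1.081 without BRQ library 1 and 1.599 without BRQ libraries 1 and 2). The cause was not tested.

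Same-numbered libraries deviated together most for number 1 (correlation of deviations 0.144, 0.008 and 0.058 for numbers 1, 2 and 3). BRQ libraries 1 and 3 correlated best with the same-numbered DMSO library, and BRQ library 2 with DMSO library 3 (0.105). Such deviations are taken from a group mean and constrain each other. They cannot tell whether the numbers pair the libraries. With a replicate block 8 members were called and 6799 genes in all, against 6638 without it. The log2 difference of the FTL to FTH1 ratio was 0.712 to 0.737 and that of TFRC to FTH1 -0.111 to -0.004 when 1 library was left out. With 3 libraries a group, exact tests could not go below 0.1. The intervals of SLC40A1 and HMOX1, which rest on the spread between libraries, leave small changes undetectable.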

Other observations

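LCN2, which encodes lipocalin-2, a secreted protein that binds iron-carrying siderophores, was the most abundant of the further iron genes. It was at 1067, 1081 and 1063 FPKM in BRQ libraries 1, 2 and 3, against 1203, 1116 and 1146 FPKM in DMSO libraries 1, 2 and 3. In DMSO it stood near FTL (1081 ± 17.3 FPKM), and in BRQ below every FTL value. Its log2 fold change of -0.11 ± 0.041 passed the test (limma adjusted p = 0.0371) but not under 6 of the alternatives (adjusted p 1.97e-04 to 0.166 over all of them), which are no filter, without BRQ library 2 or 3, without DMSO library 1 or 3, and without BRQ libraries 1 and 2. SLC22A17, a receptor for lipocalin-2, was at or below 0.0358 FPKM in every library.

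HFE, the membrane protein that competes with transferrin for the transferrin receptor, was at 5.99, 6.87 and 6.55 FPKM in BRQ libraries 1, 2 and 3, against 3.73, 5.09 and 4.75 FPKM in the DMSO libraries (log2 fold change 0.44 ± 0.096, adjusted p = 0.00224, and at most 0.0224 over all alternatives). BOLA2B, one of a near-identical pair of genes for a partner of GLRX3, had the largest SD relative to its mean of the tested further genes, at 2.20, 6.05 and 13.5 FPKM in BRQ libraries 1, 2 and 3, against 3.27, 2.17 and 7.05 FPKM in the DMSO libraries. Its copy BOLA2 was at or below 0.0286 FPKM, so the split of reads between the copies is uncertain. The log2 fold change of BOLA2B did not pass (0.53 ± 0.458, adjusted p = 0.336) and was -0.01 without BRQ library 3. It passed without BRQ library 1 (1.08, adjusted p = 0.0295), and it was 1.599 without BRQ libraries 1 and 2. Its value thus depends on which BRQ libraries are kept.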
